A study of Mus musculus with 238 samples.

Results

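Astrocytes that respond to injury, inflammation or ageing raise a set of genes by which they are called reactive. Of the 21076 genes in the count table, 7 such genes were followed here, chosen by name from a list: Gfap, Vim, Serpina3n, Lcn2, Cd44, Aqp4 and S100b. They were read in 229 libraries of bulk RNA from 15 brain regions of 16 mice, and in 9 liver libraries. All mice were C57BL/6JN and 19 months old at the time the labels give. In the diet experiment, 4 female mice fed without limit (AL) were compared with 5 female mice on dietary restriction (aDR in the brain labels, DR in the liver labels). In the plasma experiment, 4 male mice that had retro-orbital injections of PBS were compared with 3 male mice injected by the same route with plasma of young mice (YMP). The numbers of mice per region were 3 or 4 for AL, 4 or 5 for aDR, 3 or 4 for PBS and 2 or 3 for YMP. No young mice were analysed here, so no level could be set against youth, and sex differed between the experiments, which were therefore tested apart.

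Gfap and vimentin (Vim) are intermediate filament proteins of the astrocyte cytoskeleton, and Gfap is the classic histological marker of astrogliosis. Serpina3n, a secreted serine protease inhibitor, and Lcn2, a secreted iron-siderophore carrier also made by neutrophils, endothelium and hepatocytes, are low in resting astrocytes and rise in inflammation. Cd44 is a hyaluronan receptor, Aqp4 the water channel of astrocyte endfeet, and S100b a calcium-binding protein that oligodendrocyte lineage cells make too.

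Levels are given as CPM, the counts of a gene relative to the library total, scaled by the trimmed mean of M-values (TMM) on 1 scale over all brain libraries, and apart for liver. A gene was called where edgeR's quasi-likelihood test, or limma's test for values pooled over regions, gave a Benjamini-Hochberg adjusted p under 0.05 over all genes tested. Brain libraries held 605614 to 32410417 counts (median 8470541), and 6 of them held under 2000000. The median count in a brain library was 3822 for Gfap, 1056 for Aqp4, 1010 for S100b, 311 for Vim, 183 for Serpina3n, 64 for Cd44 and 4 for Lcn2. Lcn2 had 3 or fewer counts in 104 of the 229 brain libraries, so differences in Lcn2 were not detectable at this depth in most regions. The labels were checked against marker genes: 5 hepatocyte genes summed to 72330 CPM or more in each liver library and to at most 13.6 CPM in each brain library, and 14 genes of resting astrocytes were detected in all brain libraries. In bulk RNA, fewer astrocytes and less RNA per astrocyte cannot be told apart, and neither can astrocytes and the other cells that express a gene.

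Choroid plexus markers were high in some libraries that carry another label. Transcripts of 8 genes of choroid plexus epithelium summed to 692.9 to 10628 CPM in the choroid plexus libraries of AL and PBS mice. They summed to 2692 to 19776 CPM in the SVZ libraries of PBS mice, against 26.9 to 48.2 CPM in those of YMP mice, and to 5162 to 18947 CPM against 9.26 and 21.2 CPM in corpus callosum. The choroid plexus libraries in turn held the 14 genes of resting astrocytes at 4448 to 5286 CPM in the same control mice. Plexus genes were also high in single libraries of other regions, such as cerebellum of AL mouse 68 (2065 CPM). In anterior hippocampus aDR mouse 64 held 1077 CPM and PBS mouse 76 held 1513 CPM. The pons library of aDR mouse 67 held 23.35% of its counts in its 10 most abundant genes, the most of any brain library. It also held the least of the resting astrocyte genes, 2223 CPM where the next lowest brain library held 4150 CPM, and the most of the 5 genes of fibroblasts and meninges, 605 CPM.

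The stretches before the starts of 4 genes are shown because all 6 genes tested in caudate putamen and in SVZ were lower in YMP than in PBS mice there, by differences that were not called. Stretches were read for 6 of the 7 genes. These 4 were taken with the values known, and the stretches of Vim and Lcn2, which overlap exons of their own gene in GENCODE M21, are not shown. They are the 250 bases before the RefSeq start (GRCm38.p6), 5′ to 3′ on the gene's strand, at chr11:102897201-102897450 (minus strand) for Gfap, chr12:104406458-104406707 (plus strand) for Serpina3n, chr2:102901666-102901915 (minus strand) for Cd44 and chr10:76253586-76253835 (plus strand) for S100b. None of the 4 stretches overlaps an exon of its gene in GENCODE M21, and that of Gfap lies inside the span GENCODE gives the gene.
Gfap: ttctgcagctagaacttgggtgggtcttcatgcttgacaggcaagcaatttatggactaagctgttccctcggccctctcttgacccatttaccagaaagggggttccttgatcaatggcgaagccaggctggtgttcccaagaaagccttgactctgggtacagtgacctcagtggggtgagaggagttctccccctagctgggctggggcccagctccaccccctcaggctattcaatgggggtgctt
Serpina3n: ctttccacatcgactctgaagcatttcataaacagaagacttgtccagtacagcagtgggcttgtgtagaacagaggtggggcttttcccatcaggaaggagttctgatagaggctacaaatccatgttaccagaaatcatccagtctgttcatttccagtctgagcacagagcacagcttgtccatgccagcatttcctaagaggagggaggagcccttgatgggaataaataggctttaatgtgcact
Cd44: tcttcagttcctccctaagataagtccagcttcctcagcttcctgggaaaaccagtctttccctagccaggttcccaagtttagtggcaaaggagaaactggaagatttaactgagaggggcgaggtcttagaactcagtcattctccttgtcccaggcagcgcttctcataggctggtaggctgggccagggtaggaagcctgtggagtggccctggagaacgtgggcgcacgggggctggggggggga
S100b: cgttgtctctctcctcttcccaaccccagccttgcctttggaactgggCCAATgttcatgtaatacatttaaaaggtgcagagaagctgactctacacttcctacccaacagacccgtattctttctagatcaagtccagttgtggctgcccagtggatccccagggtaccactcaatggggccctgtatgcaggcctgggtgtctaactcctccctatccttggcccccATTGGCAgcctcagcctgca
Capitals mark matches to 6 motifs, searched on both strands: TTCNNNGAA (bound by STAT proteins), TGANTCA (bound by AP-1), TTGGCA (a nuclear factor I half-site), TATAAA (the core of the TATA box), GGGCGG (bound by Sp1) and CCAAT (the core of the CCAAT box). Of all 32851 promoter stretches of the same length, 7.02%, 6.75%, 12.3%, 12.4%, 32.7% and 33.8% held them. S100b held CCAAT at -202 and, overlapping each other, CCAAT read on the other strand at -20 and TTGGCA at -19, counted from the start. Gfap, Serpina3n and Cd44 held 0 matches, which says only that these letters are not in these windows.

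The control mice of each experiment were used to map the genes over the brain. All 7 genes differed between the 15 regions in AL mice and again in PBS mice, as did 98.1% and 96.1% of all genes tested, so the pattern and not the call is what the map adds. The order of the regions in AL mice followed that in PBS mice for 6 genes, with a Pearson correlation of the mean log2 CPM from 0.955 for Gfap and Serpina3n to 0.985 for Aqp4. These are descriptions over 15 regions that share their mice, and for Lcn2, near the limit of detection, it was 0.577.

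**Figure D1:**
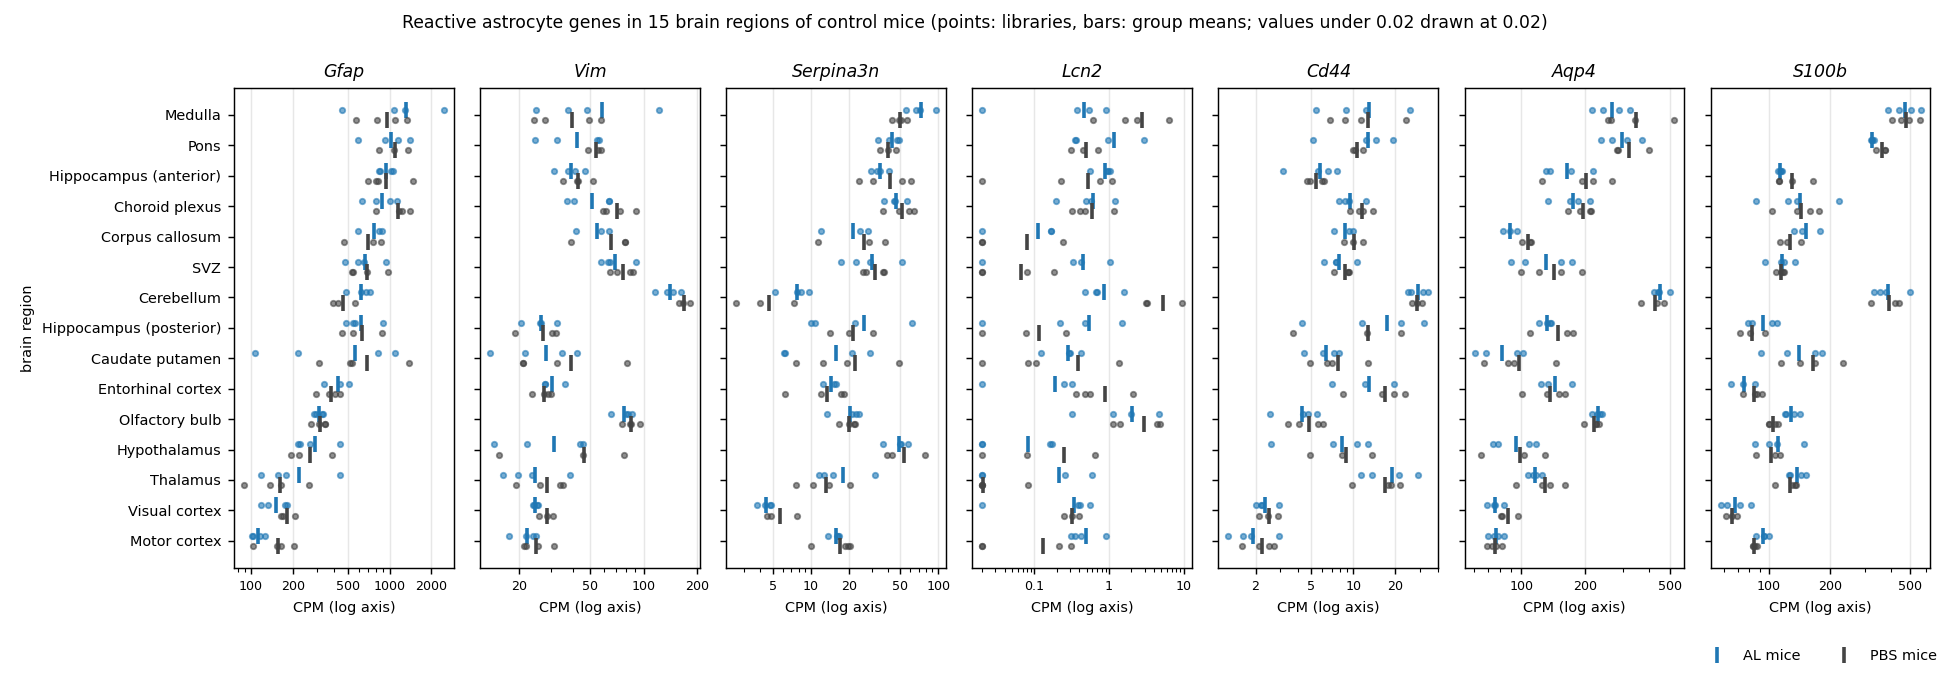
Expression of the 7 genes (CPM, log axis) in each library of 15 brain regions of AL mice (blue) and PBS mice (grey), with regions ordered by the Gfap mean of AL mice and bars at the group means. Gfap, Serpina3n and S100b were high in medulla and pons, Vim, Cd44 and Aqp4 were highest in cerebellum, and all but Serpina3n and Lcn2 were lowest in motor or visual cortex.

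Gfap (chromosome 11, 102887336 to 102900912, minus strand) had the widest range among the abundant genes. In AL mice it was at 1319 ± 839 CPM in medulla (SD, n = 4) and at 112 ± 12.2 CPM in motor cortex (n = 4). The 4 medulla libraries held 452, 1294, 1072 and 2459 CPM, whereas the motor cortex libraries lay between 101 and 127 CPM. Pons followed at 1016 ± 342 CPM, anterior hippocampus at 942 ± 108 and choroid plexus at 888 ± 219 (each n = 4). The ranges of these neighbours overlapped, and 12 of the 14 steps in the order of AL mice were within 1 pooled SD. PBS mice had the same 4 regions at the top, with choroid plexus first at 1149 ± 258 CPM (n = 4), and motor cortex again lowest at 157 ± 41.4 CPM (n = 4). Thalamus was low too, at 223 ± 145 CPM in AL and 163 ± 72.9 CPM in PBS mice (each n = 4). Gfap overlaps the lincRNA Gm26668 on the other strand, and the libraries do not record strand.

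Vim (chromosome 2, 13573927 to 13582826, plus strand) was highest in cerebellum, at 141 ± 19.6 CPM in AL mice (n = 4) and 169 ± 12.3 CPM in PBS mice (n = 3). Olfactory bulb was next, with 78.1 ± 8.50 and 85.1 ± 8.01 CPM (each n = 4), and the ranges of these 2 regions did not overlap in either group. SVZ followed at 69.0 ± 14.7 and 77.0 ± 10.8 CPM (each n = 4). Motor cortex was lowest, at 22.04 ± 3.19 and 24.9 ± 4.66 CPM (each n = 4). The correlation of Vim with Gfap over the 15 regions was 0.511 in AL and 0.383 in PBS mice.

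Serpina3n (chromosome 12, 104406729 to 104414329, plus strand) was highest in medulla of AL mice, at 72.8 ± 16.8 CPM (n = 4), and in hypothalamus of PBS mice, at 53.8 ± 21.3 CPM (n = 3). Hypothalamus of AL mice held 49.1 ± 8.97 CPM (n = 4) and medulla of PBS mice 49.8 ± 5.54 CPM (n = 4). Cerebellum and visual cortex were lowest in both groups. Cerebellum had 7.71 ± 1.87 CPM in AL mice (n = 4) and 4.65 ± 2.48 in PBS mice (n = 3), and visual cortex 4.44 ± 0.495 (n = 4) and 5.72 ± 1.83 CPM (n = 3). In AL mice the cerebellum libraries did not overlap those of entorhinal cortex, the next above, but did overlap caudate putamen, whose lowest library held 6.13 CPM. Gfap, by contrast, was at 624.7 ± 104 CPM in cerebellum (AL, n = 4).

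Lcn2 (chromosome 2, 32384633 to 32388252, minus strand) was near the limit of detection in most regions. Olfactory bulb had the highest mean in AL mice, 2.03 ± 1.91 CPM (n = 4), and cerebellum in PBS mice, 5.32 ± 3.69 CPM (n = 3). Cerebellum of AL mice held 0.858 ± 0.508 CPM (n = 4), and olfactory bulb of PBS mice 2.97 ± 1.96 CPM (n = 4). In thalamus of PBS mice 0 or 1 counts were found per library.

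Cd44 (chromosome 2, 102811141 to 102901665, minus strand) was highest in cerebellum, at 29.1 ± 4.51 CPM in AL (n = 4) and 28.7 ± 2.40 CPM in PBS mice (n = 3). Thalamus, where Gfap was low, came next with 18.8 ± 7.91 and 16.9 ± 5.00 CPM (each n = 4). Motor cortex was lowest, at 1.92 ± 0.712 and 2.23 ± 0.478 CPM (each n = 4). Posterior hippocampus varied widely between mice, from 4.31 to 32.03 CPM in AL and from 3.72 to 21.8 CPM in PBS mice. Cd44 overlaps the small nuclear RNA gene Gm23731 on the other strand.

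Aqp4 (chromosome 18, 15389496 to 15410982, minus strand) was highest in cerebellum, at 451 ± 33.7 CPM in AL mice (n = 4), where every library was above every pons library. PBS mice held 423 ± 54.1 CPM there (n = 3). Visual and motor cortex were lowest in AL mice, at 75.8 ± 5.41 and 76.2 ± 5.49 CPM (each n = 4), and did not differ beyond their spread. Aqp4 overlaps an antisense gene, whose reads cannot be told apart from its own without strand. S100b (chromosome 10, 76253853 to 76261159, plus strand) was highest in medulla, at 473 ± 74.5 CPM in AL and 477 ± 65.7 CPM in PBS mice (each n = 4). Cerebellum and pons came next in both groups, and the pons libraries lay above those of the region that followed without overlap. Visual cortex was lowest, at 68.4 ± 10.5 (n = 4) and 65.7 ± 3.86 CPM (n = 3). Aqp4 and S100b had the most similar maps among the pairs of these genes, with a correlation over regions of 0.760 in AL and 0.811 in PBS mice. S100b overlaps the coding gene Dip2a on the other strand, so some of its reads could belong to that gene.

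Between genes, levels can be compared only per length of their exons. Per kilobase of exon, medulla of AL mice held 319 CPM of S100b, 313 of Gfap, 42.8 of Aqp4, 35.3 of Serpina3n, 12.2 of Vim, 1.91 of Cd44 and 0.174 of Lcn2. In motor cortex S100b, at 63.3 CPM per kilobase, was above Gfap, at 26.5.

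Planned contrasts between regions put errors on this map. In medulla and pons against motor and visual cortex, 6 of the 7 genes were called higher in AL mice, all but Lcn2, and 7 of 7 in PBS mice, against 36.2% and 32.2% of all genes. Gfap rose 8.96-fold (log2 3.16 ± 0.31 SE, edgeR adjusted p = 1.68e-12) in AL mice and 6.09-fold (2.61 ± 0.26, adjusted p = 1.32e-11) in PBS mice. Serpina3n rose 6.83-fold and 4.64-fold, Cd44 6.04-fold and 5.19-fold, and S100b 4.92-fold and 5.65-fold. The PBS calls of Vim and Lcn2 were lost without PBS mouse 84 (adjusted p = 0.0656 and 0.0930), and that of Lcn2 also without PBS mouse 76 (0.0932).

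In cerebellum against the same cortical regions, 5 genes were higher in AL mice and 6 in PBS mice, against 35.7% and 31.3% of all genes. Cd44 was 13.5-fold and 12.4-fold higher (log2 3.76 ± 0.38 and 3.64 ± 0.34), Vim 5.98-fold and 6.28-fold, and Aqp4 5.90-fold and 5.23-fold. Serpina3n was not called, with a log2 difference of -0.10 ± 0.42 and -0.998 ± 0.45 and an edgeR adjusted p of 0.853 and 0.0515. Without PBS mouse 72 its value in PBS mice was -1.64 (adjusted p = 0.0133), and DESeq2 called it as well (-1.07, adjusted p = 0.0147). Lcn2 was 21.3-fold higher in PBS mice (adjusted p = 1.91e-07) and uncalled in AL mice (log2 0.88 ± 0.70). The motor and visual cortex libraries of PBS mice held 0 to 4 counts of Lcn2, so the size of this fold is uncertain. In cerebellum PBS mouse 72 held 9.58 CPM, and mice 80 and 84 held 3.16 and 3.22 CPM. Whether the 2 sets of control mice differ in Lcn2 there was not tested, since sex and experiment cannot be told apart.

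In olfactory bulb against motor and visual cortex, 6 genes were called higher in AL mice, all but Cd44, and 7 in PBS mice, against 34.3% and 31.8% of all genes. Lcn2 was 4.46-fold and 12.2-fold higher there, Vim 3.28-fold and 3.20-fold, and Aqp4 2.97-fold and 2.74-fold. The cortical libraries under these Lcn2 folds held 0 to 15 counts of it in AL mice and 0 to 4 in PBS mice. Cd44 in AL mice was at a log2 of 0.96 ± 0.45 (edgeR adjusted p = 0.0548), and it was called with other size factors (adjusted p = 0.0499), by DESeq2 (0.0190) and without AL mouse 68 (0.0397). The PBS call of Serpina3n was lost without PBS mouse 80 (adjusted p = 0.0820). In hippocampus, anterior and posterior together, 5 genes were higher in each group, all but Vim and Lcn2, against 21.3% and 15.7% of all genes. Gfap was 5.90-fold and 4.57-fold higher, Cd44 4.71-fold and 3.55-fold, and Serpina3n 3.59-fold and 3.03-fold. The S100b call in AL mice (1.29-fold, adjusted p = 0.0224) was lost without AL mouse 66, 68 or 69 (adjusted p = 0.0727 to 0.0948).

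Corpus callosum, a white matter tract, exceeded motor cortex in 4 genes in each group, Gfap, Vim, Cd44 and S100b, against 26.3% and 22.2% of all genes. Gfap was 7.14-fold and 4.49-fold higher and Cd44 4.70-fold and 4.83-fold, while Serpina3n (log2 0.42 ± 0.45 and 0.68 ± 0.42) and Aqp4 (0.27 ± 0.19 and 0.53 ± 0.24) were not called. The S100b call in PBS mice was lost without PBS mouse 80 (edgeR adjusted p = 0.0849). These corpus callosum libraries also held the 8 plexus genes, at 48.3, 11393 and 1209 CPM in AL mice and 5162 to 18947 CPM in PBS mice. Their ependymal markers summed to 37.3 to 162 CPM, against 2.28 to 5.52 CPM in motor cortex. The part of such tissue in this contrast was not tested. Choroid plexus against the other 14 regions was higher in Gfap and Serpina3n in AL mice, and in those and Vim in PBS mice, against 18.1% and 16.8% of all genes. Gfap was 1.92-fold and 2.53-fold higher and Serpina3n 2.18-fold and 2.49-fold. The Vim call was lost without PBS mouse 80 or 84 (adjusted p = 0.157 and 0.0589). Aqp4 in AL mice (log2 0.29 ± 0.12, adjusted p = 0.0679) was called with the mouse as a block (0.0264) and without AL mouse 63 (0.0409), and in PBS mice (0.30 ± 0.16, adjusted p = 0.153) without mouse 84 (0.0480).

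SVZ and caudate putamen are neighbours. In AL mice Vim (2.504-fold), Serpina3n (1.98-fold) and Aqp4 (1.63-fold) were higher in SVZ, against 21% of all genes. In PBS mice Vim (2.10-fold) and Aqp4 (1.496-fold) were higher and S100b lower (log2 -0.48 ± 0.15), where 28.9% of genes were called in either direction. Gfap was not called, at a log2 difference of 0.27 ± 0.40 and 0.04 ± 0.32. Several calls were lost without 1 mouse or under another setting. The Aqp4 call in PBS mice was lost with other size factors (edgeR adjusted p = 0.0546), with no filter on low counts (0.0677) and without libraries under 2000000 counts (0.0637). In PBS mice Vim and Aqp4 were also lost without mouse 72, 80 or 84 (adjusted p up to 0.111 and 0.183) and S100b without mouse 76 or 80 (up to 0.232), while Serpina3n was called without mouse 76 (0.00894). In AL mice Serpina3n was lost without mouse 63, 68 or 69 (up to 0.266) and with no filter on low counts (0.0528). The SVZ libraries held 57.6 to 3099 CPM of plexus genes in AL mice and 2692 to 19776 CPM in PBS mice. Those of caudate putamen held 16.2 to 572 CPM and 11.3 to 3663 CPM. The part of such tissue in the contrast of SVZ with caudate putamen was not tested. Hypothalamus against thalamus split the genes. Serpina3n was 2.70-fold and 4.06-fold higher in hypothalamus, whereas Cd44 was lower in AL mice (log2 -1.20 ± 0.41, adjusted p = 0.0160). In this contrast 43% and 31.6% of all genes were called. In PBS mice Cd44 was at -0.94 ± 0.38 (adjusted p = 0.0512), and was called with the mouse as a block (0.0463). The Serpina3n call in PBS mice was lost without mouse 80 (0.0614), and the Cd44 call in AL mice without mouse 66 (0.117). Without PBS mouse 72, Gfap and Vim were called higher in hypothalamus (adjusted p = 0.0191 and 0.00845).

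Over the 8 contrasts and 7 genes, 33 of 56 tests were called in AL mice and 36 of 56 in PBS mice. Of these, 31 were called in both, all 31 with the same sign.

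The genes whose regional pattern was most like that of each member were sought among 11998 genes with a mean of at least 5 CPM, by the Pearson correlation of mean log2 CPM over the 15 regions of AL mice. They are descriptions: the regions share mice and libraries. S100b had the closest companions, Slc39a13 (0.972), Bag3 (0.963) and Foxn3 (0.958), of which Bag3 (0.910) and Foxn3 (0.933) kept a similar value in PBS mice and Slc39a13 had 0.717. Vim was most like Smc4 (0.914), Map4k4 (0.896) and Hps5 (0.895), and Aqp4 most like Pla2g7 (0.910), Mab21l1 (0.876) and Fmnl2 (0.871). Serpina3n was most like Lipa (0.886), Smim17 (0.853) and Tmem69 (0.846), the last with 0.471 in PBS mice. The genes most like Gfap included Padi2 (0.875 in AL and 0.886 in PBS mice) and Echs1 (0.857 and 0.661). Cd44 was most like Pde9a (0.844), Slc22a15 (0.809) and Tdrkh (0.806). Lcn2 was most like Ripply2 (0.859), the endothelial tight junction gene Cldn5 (0.850) and Mvb12b (0.847), with 0.776, 0.735 and 0.428 in PBS mice.

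The diet comparison asked whether dietary restriction shifted these genes in the old female brain. None of the 7 was called in any region. In 91 tests of a gene in a region 0 were called, where 0.0525% of all gene and region pairs were, and 7 (7.69%) had an unadjusted p under 0.05, where 6.24% of all pairs did. The lowest adjusted p was 0.0769, for S100b in olfactory bulb.

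**Figure D2:**
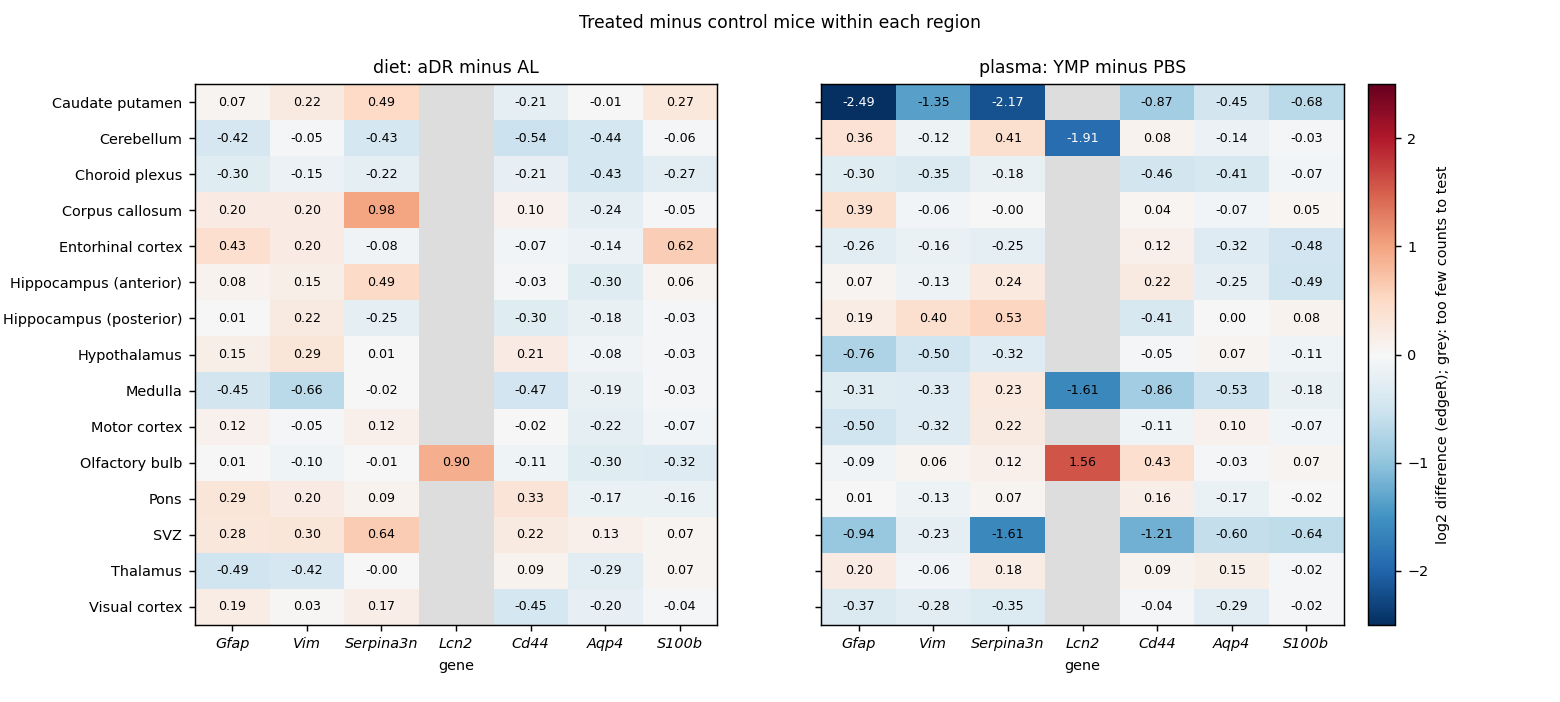
Log2 difference of treated minus control mice (edgeR) for each gene and brain region, in the diet experiment (left, aDR minus AL) and the plasma experiment (right, YMP minus PBS), with grey where counts were too few to test. Diet differences lay between -0.66 and 0.98, with Aqp4 below 0 in 14 of 15 regions, and plasma differences were lowest in caudate putamen and SVZ.

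Aqp4 had the most even diet difference. It was lower in aDR mice in 14 of 15 regions, all but SVZ (log2 0.13), whereas 2.92% of genes tested in all 15 regions were lower in at least 14. Regions share mice, so these are not 14 separate results. In cerebellum the 4 AL libraries held 444, 499, 437 and 422 CPM, and the 5 aDR libraries 324, 408, 303, 349 and 293 CPM. The groups did not overlap, with a log2 difference of -0.44 ± 0.09 SE (edgeR adjusted p = 0.102), in a region where 0.0524% of genes were called. The adjusted p was 0.0276 without aDR mouse 62 and 0.00167 by DESeq2. The share called is another measure than a lack of overlap. How many of all genes did not overlap is not given for any region of the diet experiment. In olfactory bulb the AL libraries held 215, 235, 227 and 241 CPM and the aDR libraries 187, 187, 197, 212 and 156 CPM, again without overlap (log2 -0.30 ± 0.08, edgeR adjusted p = 0.172). Without aDR mouse 65, whose library there held under 2000000 counts, the difference was -0.35 (adjusted p = 0.0471).

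Cd44 in cerebellum showed the same order. The AL libraries held 34.3, 31.4, 24.8 and 26.0 CPM and the aDR libraries 20.2, 23.9, 16.6, 19.97 and 21.8 CPM, which did not overlap (log2 -0.54 ± 0.12, edgeR adjusted p = 0.114, and 0.0162 by DESeq2). Gfap in cerebellum was at 722, 671, 624.99 and 481 CPM in AL and 355, 612, 285, 465.6 and 630 CPM in aDR mice, with overlap (log2 -0.42 ± 0.21, adjusted p = 0.394). Beside these differences, all 6 oligodendrocyte markers and 5 of 6 endothelial markers were lower in cerebellum of aDR mice. Their median log2 differences were -0.48 and -0.32. Also lower were all 5 genes of fibroblasts and meninges (median -0.31) and 5 of 6 microglia and macrophage markers (-0.15). Of 5 neuron markers 1 was lower (median 0.06), and of 5 neutrophil and blood markers tested 1 (0.49). None of these markers was called. The cerebellum library of AL mouse 68 held 2065 CPM of plexus genes and that of AL mouse 66 held 91.9 CPM. The aDR libraries there held 17.7 to 21.2 CPM. The part of these transcripts in the result was not tested. The 14 genes of resting astrocytes were split evenly there, 7 lower, with a median of 0.00.

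S100b in olfactory bulb was at 142, 132, 120 and 121 CPM in AL mice and at 99.5, 103, 105, 92.4 and 111 CPM in aDR mice. The groups did not overlap (log2 -0.32 ± 0.06, edgeR adjusted p = 0.0769, and 0.00311 by DESeq2). In this region 0.22% of genes were called, which is another measure than a lack of overlap. The share of all genes without overlap is not given here. All 6 endothelial markers were lower there in aDR mice too (median log2 difference -0.30, 0 called), and their part was not tested. Lcn2 passed the filter on low counts only in this region of the diet experiment, at 0.321, 1.13, 4.71 and 1.97 CPM in AL and 7.61, 1.68, 0.781, 7.11 and 4.72 CPM in aDR mice (log2 0.90 ± 0.65, adjusted p = 0.573). The groups overlapped widely. In olfactory bulb 6 of 6 markers of neutrophils and blood were higher in aDR mice, with a median log2 difference of 1.20 and 0 called, and their part in the Lcn2 value was not tested.

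Serpina3n had its smallest p in anterior hippocampus, with 32.7, 34.9, 41.1 and 29.7 CPM in AL and 36.4, 41.0, 74.4, 37.1 and 52.7 CPM in aDR mice (log2 0.49 ± 0.21, edgeR adjusted p = 1.0). There 0% of genes were called. Vim had it in medulla, with 24.7, 48.0, 37.7 and 122 CPM in AL and 59.6, 22.1, 35.2, 32.2 and 32.5 CPM in aDR mice (log2 -0.66 ± 0.38, adjusted p = 0.801), where 0.00714% of genes were called. In both regions the groups overlapped, and the highest Vim value came from AL mouse 69. The anterior hippocampus library of aDR mouse 64, at 74.4 CPM of Serpina3n, held 1077 CPM of plexus genes and 32.6 CPM of ependymal markers. The other diet libraries of that region held 6.73 to 21.4 CPM and 2.99 to 5.02 CPM of these. The part of such tissue in the Serpina3n value was not tested.

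To use each animal once, its log2 CPM was reduced to 1 value per mouse, the term for the mouse after the region, and these values were tested with limma over all genes. In the diet experiment 0 of the 7 genes were called (0.922% of all genes were) and 0 of 7 had an unadjusted p under 0.05 (16.1% of all genes did). The difference was -0.01 ± 0.09 (log2 ± SE) for Gfap, 0.03 ± 0.12 for Vim, 0.10 ± 0.11 for Serpina3n, 0.35 ± 0.36 for Lcn2, -0.09 ± 0.12 for Cd44 and -0.02 ± 0.06 for S100b. Aqp4 was at -0.22 ± 0.12 (limma adjusted p = 0.391), with mouse values of 7.05 to 7.37 in AL and 6.58 to 7.15 in aDR mice. It was -0.21 without the pons library of mouse 67 (adjusted p = 0.365) and -0.13 without that mouse (0.469). With the mouse as a block over all libraries in voom, its value was -0.23 and its adjusted p 0.0114. Without caudate putamen and SVZ, a choice made after the values were seen, the Aqp4 groups did not overlap (-0.26 ± 0.10, limma adjusted p = 0.245, exact two-sided permutation p = 0.0159). SVZ was the only region where Aqp4 was higher in aDR mice. Leaving it out favours a larger difference, so the smaller p cannot serve as a test. With all 15 regions the groups overlapped, with an exact two-sided permutation p of 0.175. By edgeR's test of the interaction, a difference between regions in the effect of diet was called for 0 of the 7 genes (adjusted p = 1.0 for each). In that test 0.0128% of all genes were called.

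**Figure D3:**
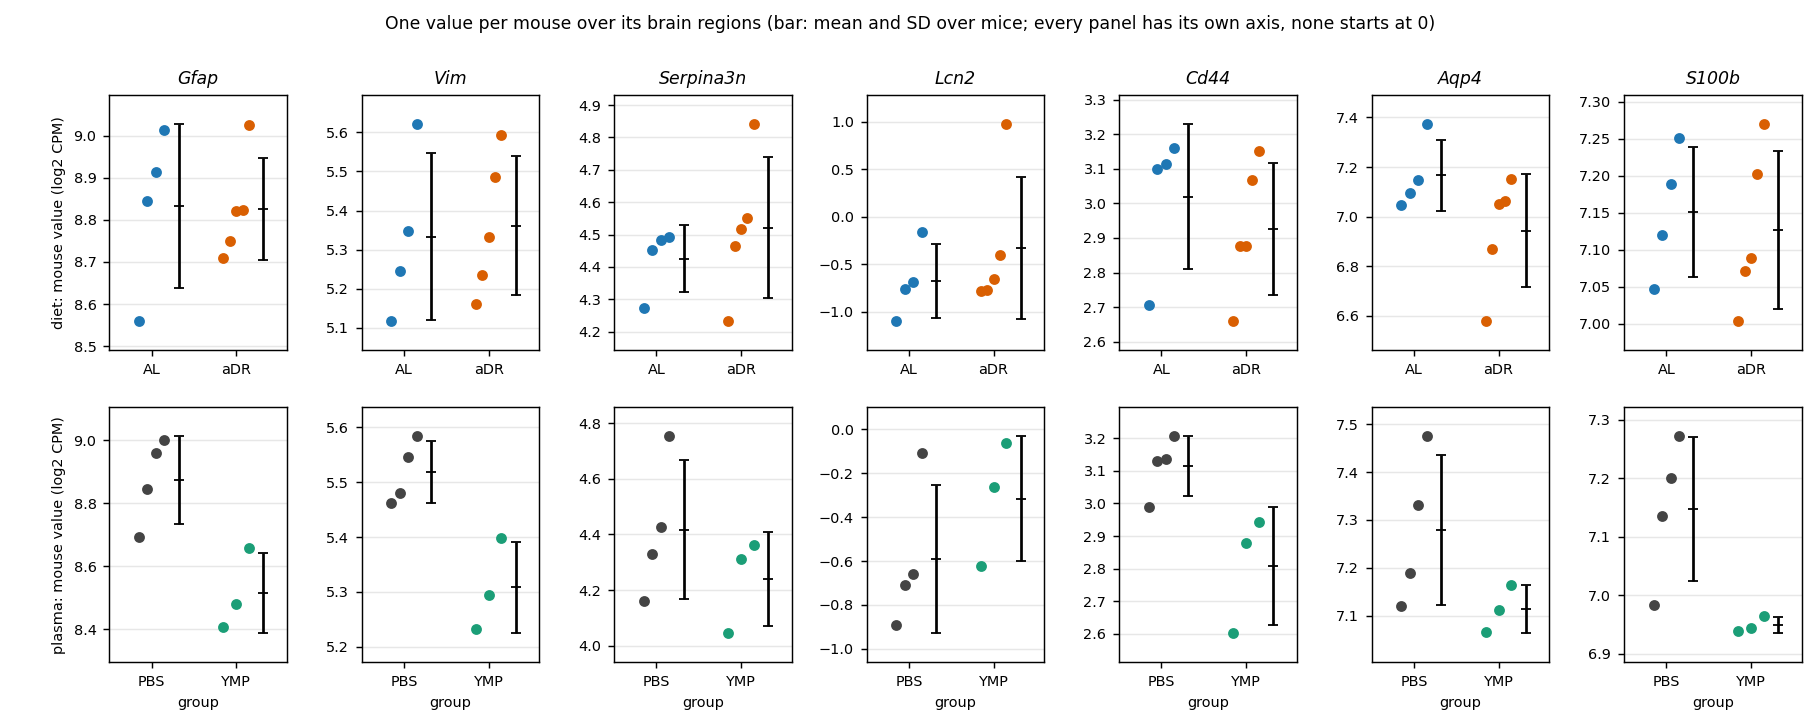
One value per mouse and gene (log2 CPM over its brain regions), for the diet experiment (top, 4 AL and 5 aDR mice) and the plasma experiment (bottom, 4 PBS and 3 YMP mice), with the mean and SD beside each group. Diet groups overlapped for all 7 genes, 1 aDR mouse stood at 0.98 for Lcn2, and YMP mice lay below all PBS mice for Gfap, Vim, Cd44 and S100b.

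The highest Lcn2 value over regions in the diet experiment stood well apart from the others. In aDR mouse 67 the Lcn2 value over regions was 0.98. The other aDR mice lay between -0.78 and -0.40, and the AL mice between -1.10 and -0.17. Its library held the most Lcn2 of the aDR mice in 13 of 15 regions, in thalamus with 1 count. In olfactory bulb aDR mice 61 and 65 held 7.61 and 7.11 CPM against its 4.72 CPM. In entorhinal cortex aDR mouse 62 held more. AL mouse 68 held more than mouse 67 in motor cortex, posterior hippocampus, pons and thalamus. In cerebellum mouse 67 held 88 counts, 13.5 CPM, where the other mice of the experiment held at most 1.66 CPM. The summed neutrophil and blood genes of mouse 67 went both ways between regions. In SVZ it held 52.3 CPM of them, and the other diet mice at most 8.53 CPM. In cerebellum it held 17.7 CPM of them, where aDR mouse 62 held 102 CPM with 0.972 CPM of Lcn2. The part of these genes in the Lcn2 values was not tested. Mouse 67 also had the highest Serpina3n mouse value, 4.84 against at most 4.55 in the others, and the lowest Aqp4 value, 6.58 against at least 6.87. Its corpus callosum library held 95.6 CPM of Serpina3n, and its liver library 98.1 CPM of Lcn2. AL mouse 68 had the second highest liver value, 88.2 CPM, and the highest brain value of the AL mice. Without mouse 67 the diet difference of Lcn2 over regions was 0.02 in place of 0.35. With all libraries in voom it was 0.64 with the mouse as a block (limma adjusted p = 0.144) and 0.61 without the block (0.0668).

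**Figure D4:**
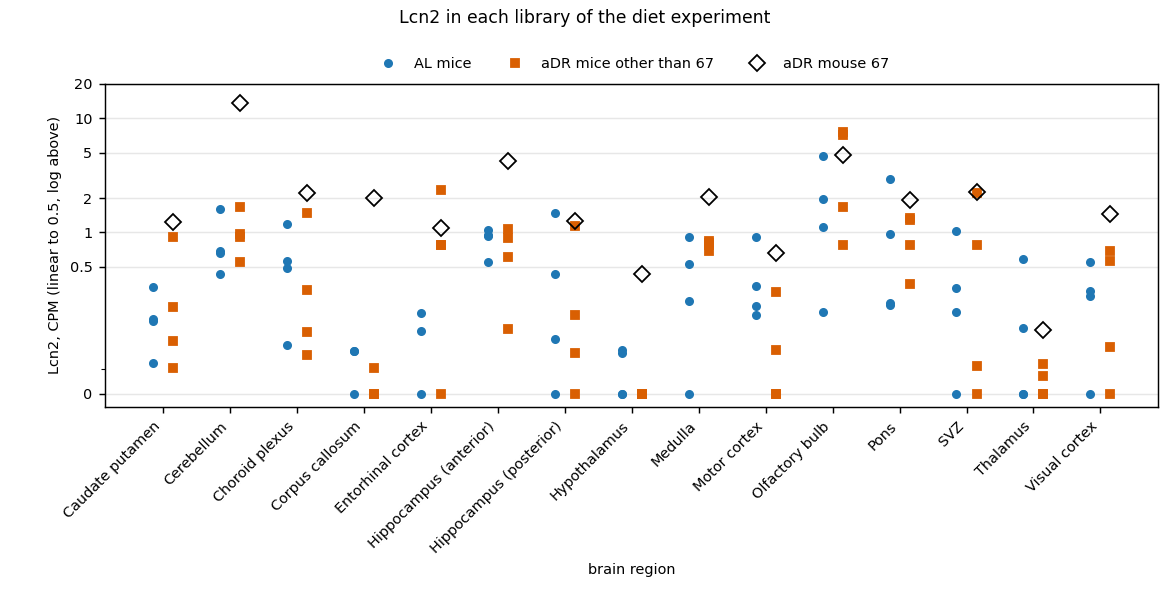
Lcn2 (CPM, linear to 0.5 and logarithmic above) in each brain library of the diet experiment, for AL mice (circles), 4 aDR mice (squares) and aDR mouse 67 (diamonds). Mouse 67 was the highest aDR mouse in 13 of 15 regions, most clearly in cerebellum at 13.5 CPM.

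In liver, 4 of the 7 genes passed the filter and 0 were called, where 0.22% of genes were. Lcn2 was at 37.4 ± 34.5 CPM in AL mice (n = 4) and 44.3 ± 31.3 CPM in DR mice (n = 5). Serpina3n was at 160 ± 34.5 and 182 ± 51.9 CPM, Vim at 30.4 ± 6.16 and 36.2 ± 1.90 CPM, and Cd44 at 23.7 ± 11.1 and 17.8 ± 8.38 CPM. The adjusted p (edgeR) was between 0.686 and 0.966, and the groups overlapped for each gene. S100b had 0 counts in all 9 liver libraries, which allows at most 3 counts, 0.247 to 0.857 CPM depending on the library and for counting error only. Gfap had 0 to 8 counts and Aqp4 3 to 38.

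The other lists of the diet experiment showed how far the wider programme moved. They had 0 genes called over regions in any of 6 lists: 8 other pan-reactive genes (median log2 difference -0.13, with 6 of 8 lower), 11 genes named A1 (0.00), 12 named A2, of which 11 were tested (-0.08), 11 of cytokine receptors and STAT3 signalling, of which 10 were tested (0.01), 14 of resting astrocytes (0.01) and 10 of intermediate filaments and their linkers (-0.02). The median over all genes was -0.01. The smallest p of the pan-reactive genes was that of S1pr3, a sphingosine phosphate receptor (-0.16 ± 0.04, limma adjusted p = 0.0762). Fkbp5, a glucocorticoid-induced co-chaperone that is on the A1 list, was at 0.56 ± 0.13 over regions (adjusted p = 0.0942). Cxcl10, a chemokine (-0.24 ± 0.18), Iigp1 of the A1 list (-0.27 ± 0.23), B3gnt5 and Emp1 of the A2 list (-0.16 ± 0.06 and -0.16 ± 0.11), Il6st, the shared receptor of the interleukin 6 family (-0.12 ± 0.04), and its ligand Lif (-0.24 ± 0.19) had an adjusted p of 0.193 to 0.612 (limma). Fkbp5 rose within motor cortex (0.75, edgeR adjusted p = 0.0409), olfactory bulb (0.66, adjusted p = 0.00829) and visual cortex (0.88, adjusted p = 0.00126). Of the resting genes Gjb6, a gap junction protein, was at 0.28 ± 0.06 (adjusted p = 0.0781), and Fgfr3, a growth factor receptor, rose in olfactory bulb (0.33, adjusted p = 0.0455). Lamin A (Lmna, 0.19 ± 0.05, adjusted p = 0.0989) and nestin (Nes, -0.21 ± 0.06, adjusted p = 0.127) went in opposite directions. Fkbp5, Gjb6, Lmna, Fgfr3 and Nes were called with the mouse as a block in voom (adjusted p = 3.46e-11 to 0.0208). Of the cell type markers, the endothelial genes Tek (-0.37), Flt1 (-0.26) and Cldn5 (-0.48) fell over regions in aDR mice (limma adjusted p = 0.00736 to 0.0402).

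The plasma comparison asked the same of plasma from young mice in old males. None of the 7 genes was called in any region, in 93 tests, where 0.0127% of all gene and region pairs were called. However, 20 of the 93 tests (21.5%) had an unadjusted p under 0.05, where 6.11% of all pairs did, and 19 of those 20 were lower in YMP mice. Regions share mice, so the tests are not independent.

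Over regions, YMP mice lay below all PBS mice for 4 of the 7 genes, Gfap, Vim, Cd44 and S100b, where 5.34% of all genes did. The Gfap values were 9.001, 8.96, 8.85 and 8.69 in PBS mice and 8.41, 8.66 and 8.48 in YMP mice, a difference of -0.36 ± 0.09 (limma adjusted p = 0.422). Vim differed by -0.21 ± 0.06 (adjusted p = 0.446), Cd44 by -0.31 ± 0.09 (0.484) and S100b by -0.20 ± 0.07 (0.534). These 4 had an unadjusted p under 0.05, as had 8.09% of all genes, and 0 of the 7 were called, nor was any gene (0%). The exact two-sided permutation p was 0.0286 for Vim and Cd44, the smallest that 3 against 4 mice allow, and 0.0571 for Gfap and S100b. Aqp4 differed by -0.17 ± 0.09, Serpina3n by -0.18 ± 0.14 and Lcn2 by 0.27 ± 0.20, all with overlap. Beside these values, all 8 plexus genes were lower in YMP mice over regions (median -1.24), 7 of them with an unadjusted p under 0.05. Of the 5 genes of fibroblasts and meninges 4 were lower (median -0.29), 3 with such a p, and all 6 oligodendrocyte and all 6 ependymal markers were lower, with medians of -0.15 and -0.21. None of these markers was called, and their part in the result was not tested. Without caudate putamen and SVZ, a choice made after these values were seen, the groups overlapped for all 7 genes. The difference was then -0.14 ± 0.09 for Gfap, -0.14 ± 0.06 for Vim, -0.19 ± 0.10 for Cd44, -0.13 ± 0.07 for S100b and 0.07 ± 0.14 for Serpina3n.

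Caudate putamen held the largest differences. Gfap was at 516, 1384, 534 and 311 CPM in PBS mice 72, 76, 80 and 84, and at 169, 105 and 102 CPM in YMP mice 73, 77 and 81. Every YMP library was below every PBS library, a log2 difference of -2.49 ± 0.50 (edgeR adjusted p = 0.474, and 0.0156 by DESeq2). Serpina3n was at 12.5, 49.1, 19.1 and 7.67 CPM against 5.39, 4.53 and 4.76 CPM, also without overlap (log2 -2.17 ± 0.63). Vim was at 21.0, 80.8, 32.7 and 21.1 CPM against 16.4, 13.6 and 15.8 CPM, without overlap (log2 -1.35 ± 0.49). Cd44 (log2 -0.87 ± 0.38) and S100b (-0.68 ± 0.23) overlapped. Of the 6 genes tested there, 6 were lower and 5 had an unadjusted p under 0.05, where 6.68% of all genes were lower with such a p and 0% were called. Of the 6, 3 were lower without overlap, as were 6.2% of all genes tested there. The median of the 6 was -1.11, and that of all genes -0.01.

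Other transcripts moved with these. The library of PBS mouse 76, the highest for all 6 genes tested, held 3663 CPM of the 8 plexus genes, against 11.3 to 29.8 CPM in the other 6 libraries, and 38312 CPM of 6 oligodendrocyte markers. The other PBS libraries held 16204 to 19425 CPM of the oligodendrocyte markers and the YMP libraries 10456 to 16453 CPM. Without mouse 76 the difference was -1.87 for Gfap (edgeR adjusted p = 0.133), -1.43 for Serpina3n and -0.71 for Vim. The genes of fibroblasts and meninges summed to 48.8 CPM in mouse 76 and to 11.98 to 15.04 CPM in the other libraries. The part of these transcripts was not tested. In the same region of the diet experiment Gfap ran from 107 to 1100 CPM in AL mice and from 123 to 864 CPM in aDR mice. All 14 genes of resting astrocytes were lower in YMP mice, with a median of -0.21 and 0 called.

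**Figure D5:**
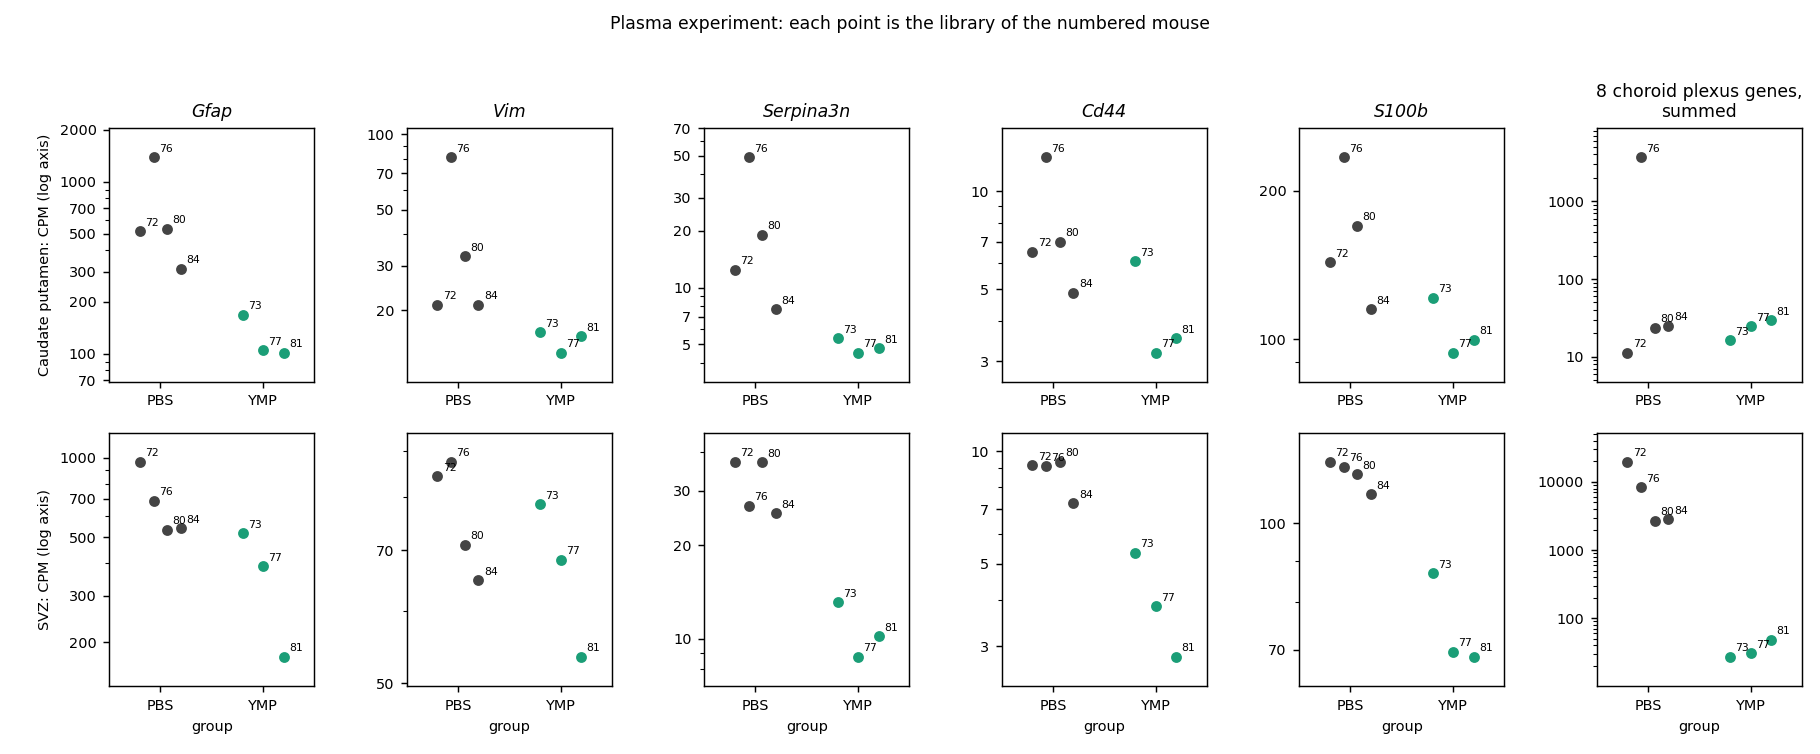
CPM (log axis) of 5 genes and of 8 choroid plexus genes summed, in caudate putamen (top) and SVZ (bottom) of the plasma experiment, 1 point per library with the mouse number. Gfap, Vim and Serpina3n in caudate putamen and Gfap, Serpina3n, Cd44 and S100b in SVZ did not overlap between the groups, where 6.2% and 6.24% of all genes tested were lower in YMP mice without overlap, and neither did the plexus genes in SVZ.

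In SVZ, Serpina3n came closest to the threshold of any gene and region. It was at 37.2, 26.9, 37.0 and 25.4 CPM in PBS mice and at 13.1, 8.74 and 10.2 CPM in YMP mice, without overlap, a log2 difference of -1.61 ± 0.21 (edgeR adjusted p = 0.0519). It was called with other size factors (adjusted p = 0.0460), without the filter on low counts (0.0355), by DESeq2 (8.42e-09) and without PBS mouse 72 (0.0232). Without each of the other mice the adjusted p was 0.0716 to 0.360, and the difference -1.76 to -1.49. Cd44 was at 9.17, 9.11, 9.38 and 7.26 CPM against 5.34, 3.84 and 2.81 CPM, from 18 to 202 counts per library (log2 -1.21 ± 0.24, adjusted p = 0.105, and 0.00353 by DESeq2). S100b was at 119, 117, 115 and 108 CPM against 86.9, 69.6 and 68.6 CPM (log2 -0.64 ± 0.11, adjusted p = 0.0787, 6.29e-05 by DESeq2, and 0.0448 without PBS mouse 72). Gfap was at 967, 688, 535 and 542 CPM against 518, 389 and 176 CPM (log2 -0.94 ± 0.37, adjusted p = 0.329), also without overlap. Vim overlapped (log2 -0.23), as did Aqp4 (-0.60 ± 0.21).

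Of the 6 genes tested in SVZ, 6 were lower and 5 had an unadjusted p under 0.05, where 7.9% of all genes were lower with such a p and 0% were called. Of the 6, 4 were lower without overlap, as were 6.24% of all genes tested there. Beside them stand the plexus genes given above, 2692 to 19776 CPM in PBS and 26.9 to 48.2 CPM in YMP mice, all 8 lower with a median log2 difference of -7.62. The ependymal markers were at 148.0 to 210.1 CPM in PBS and 147.9 to 172.3 CPM in YMP mice, with 5 of 6 lower (median -0.40). The 5 genes of fibroblasts and meninges were all lower (median -1.24), at a sum of 35.9 to 82.7 CPM in PBS and 16.7 to 22.3 CPM in YMP mice, and 0 of either list were called. In the diet experiment SVZ libraries with 57.6 and 29.1 CPM of plexus genes, AL mouse 63 and aDR mouse 64, held 17.2 and 20.7 CPM of Serpina3n. The remaining 7 held 203 to 9849 CPM of plexus genes and 22.5 to 72.3 CPM of Serpina3n. The part of the plexus, meningeal and ependymal transcripts, or of tissue that carries them, in the SVZ differences was not tested.

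Over all 15 regions the differences had both signs. Gfap was lower in YMP mice in 9 of 15 regions, Vim in 13, S100b in 12, Aqp4 in 11, Cd44 in 8 and Serpina3n in 7. Of all genes tested in 15 regions, 20.6% had 1 sign in 12 or more and 11.0% in 13 or more. Aqp4 had its smallest p in visual cortex, at 80.6, 81.6 and 97.0 CPM in PBS and 72.3, 65.4 and 74.1 CPM in YMP mice, without overlap (log2 -0.29 ± 0.10, edgeR adjusted p = 0.999), where 0% of genes were called. Gfap did not overlap there either, at 170, 208 and 163 CPM in PBS and 140, 130 and 149 CPM in YMP mice (log2 -0.37 ± 0.11). S100b did not overlap in entorhinal cortex, at 87.1, 92.7, 85.3 and 74.7 CPM in PBS and 54.2, 64.5 and 63.0 CPM in YMP mice (log2 -0.48 ± 0.11, edgeR adjusted p = 0.910). The share of all genes without overlap is not given for visual cortex, entorhinal cortex or cerebellum of the plasma experiment. Lcn2 was tested in 3 regions and went both ways. In cerebellum it was at 9.58, 3.16 and 3.22 CPM in PBS and 2.27, 1.38 and 0.564 CPM in YMP mice (log2 -1.91 ± 0.56, adjusted p = 0.429), without overlap, where 0.00738% of genes were called. In medulla the difference was -1.61 ± 0.62 with overlap. In olfactory bulb it was 1.56 ± 0.54, from 1.14, 4.85, 1.41 and 4.46 CPM in PBS and 0, 1.86 and 14.9 CPM in YMP mice. The value of 14.9 CPM came from YMP mouse 81, and the library at 0 from YMP mouse 73 was the shallowest of the series. The same library of mouse 81 had the highest sum of the 6 neutrophil and blood genes in olfactory bulb of the plasma experiment, 449 CPM. The PBS libraries with 4.85 and 4.46 CPM of Lcn2, mice 76 and 84, held 160 and 166 CPM of them, and the other 4 libraries 35.3 to 97.2 CPM. Their part in the Lcn2 value was not tested. Without YMP mouse 77 Lcn2 was called there (2.09, adjusted p = 0.0125). In cerebellum the neutrophil and blood genes summed to 10.6, 114 and 82.9 CPM in PBS mice 72, 80 and 84. The PBS library with the most Lcn2 there, 9.58 CPM in mouse 72, thus held the least of them in that group. In YMP mice 73, 77 and 81 they summed to 50.8, 7.73 and 3.05 CPM.

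Whether the plasma difference varied between regions was tested as an interaction, with no term for the mouse. For Gfap the adjusted p (edgeR) was 0.0759, for Lcn2 0.0974 and for Serpina3n 0.195, and for the other 4 genes 0.676 to 1.0. No member was called, while 0.786% of all genes were.

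The wider lists had 0 genes called over regions in the plasma experiment. The median difference was -0.12 for the 8 other pan-reactive genes (5 of 8 lower), -0.11 for A1 genes (8 of 11 lower), -0.18 for A2 genes (9 of 11 tested lower), -0.01 for cytokine receptors and STAT3 signalling, -0.02 for resting astrocyte genes and -0.02 for intermediate filaments, and -0.004 over all genes. Of the pan-reactive genes, Aspg, an asparaginase, was at -0.41 ± 0.12 (limma adjusted p = 0.484) and Steap4, a metalloreductase, at -0.45 ± 0.14 (adjusted p = 0.485). The growth factor Cntf was at -0.46 ± 0.14 (adjusted p = 0.490) and the complement inhibitor Serping1 at -0.35 ± 0.14 (adjusted p = 0.576). Sphk1 and Tm4sf1 of the A2 list (-0.27 ± 0.13 and -0.15 ± 0.06), Lif (0.28 ± 0.13), the potassium channel Kcnj10 (-0.20 ± 0.10), Atp1b2 (-0.08 ± 0.05) and the filament genes Des and Nefh (-0.23 ± 0.09 and -0.24 ± 0.08) had an adjusted p of 0.538 to 0.720 (limma). Fkbp5, which rose in 3 regions of aDR mice, was at 0.19 ± 0.08 (adjusted p = 0.625).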

How the data were processed

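RNA of homogenised tissue was made into unstranded Smart-Seq2 cDNA and Nextera XT libraries, per the labels' protocols. The authors deposited 1 table of raw read counts per gene. Per the submitters' processing notes, Trim Galore 0.3.7, STAR 2.5.3a, GRCm38 and DESeq2 were used. The counting program is not given in the sources used here. From the counts, log2 CPM (prior count 2), TMM factors and tests were computed with R 4.3.3, edgeR 4.0.16 (quasi-likelihood) and limma 3.58.1, after filterByExpr (minimum count 10, minimum total 15), with Benjamini-Hochberg adjustment over all genes tested. Examples of each kind of main test were run on simulated counts, drawn with no effect of the mouse. DESeq2, voom, the blocked fits, the liver test and the diet interaction were not run on them. Alternatives were DESeq2 1.42.0, RLE size factors, no filter, a prior count of 0.5, no libraries under 2000000 counts, each mouse left out, and the mouse as a block. Mouse numbers pair libraries because they come from the same animal (mean correlation of deviations 0.0495 in the diet and 0.125 in the plasma experiment, against -0.0135 and -0.0496 between mice). Of 357 pairs of libraries of a group, none agreed within sampling noise (lowest chi-square per degree of freedom 1.29). P-values within a region, and those of values pooled to 1 per mouse, measure the spread between mice. The main region contrasts and interaction tests had no term for the mouse, so libraries of 1 mouse counted as separate there. The genes and lists were chosen with earlier results of these data known. Named were the 7 genes, the 3 genes most like each (1 of them is not reported here), the 2 smallest p of each list, called list genes and markers, and a few further regions picked after their values were seen. Within regions a gene is given in full where its p was smallest. Lists named A1 and A2 are published reactive astrocyte signatures. The floors given for liver cover counting error only. Each ± after a mean CPM is an SD over mice, and each ± after a log2 difference is an SE of the fitted model.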

Additional observations from a re-analysis of the deposited data

Results flagged for a closer look

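Of 40 groups of 4 or 5 mice tested, 3 held a sample far from the others by Dixon's test, where chance gives about 1 in 20 groups, or 2. The Lcn2 value over regions of aDR mouse 67, 0.9758, lay above those of the other aDR mice, the highest of which was -0.4038. The Cd44 value over regions of AL mouse 68, 2.707, lay below the other AL mice, at 3.099 to 3.159. In SVZ of PBS mice, Cd44 in mouse 84, 7.259 CPM from 18 counts, lay below the others, at 9.114 to 9.378 CPM.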

How the results depend on the processing

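The main tests called 0 of the 7 genes for diet or plasma, and other settings called few. Over regions in the diet experiment, 1 was called (Aqp4) with the mouse as a replicate block in voom, and 1 without the block. Over regions in the plasma experiment, 3 were called (Gfap, Aqp4, S100b) in voom without the block, which counts libraries of 1 mouse as separate, and 0 with it. Within regions of the diet experiment, 4 tests were called by DESeq2 and 1 without libraries under 2000000 counts, and leaving out 1 mouse gave 0 to 1. Within regions of the plasma experiment, 4 were called by DESeq2, 1 with RLE size factors and 1 with no filter on low counts, and leaving out 1 mouse gave 0 to 2. The cause was not tested.

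Signs changed only for uncalled differences (log2). For diet over regions, Gfap was 0.0006583 without libraries under 2000000 counts, 0.01495 without choroid plexus and corpus callosum and 0.005698 without the pons library of aDR mouse 67, and Vim was -0.01269 without caudate putamen and SVZ. The last 2 settings were chosen after seeing the data, as was the plasma value of 0.072 for Serpina3n without caudate putamen and SVZ. B3gnt5 was 0.02163 for diet with the block in voom. S100b in choroid plexus of AL mice was -0.001436 with RLE size factors, -0.007791 with the mouse as a block and -0.004338 by DESeq2.

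Leaving out 1 mouse at a time moved the diet difference over regions from -0.1008 to 0.04741 for Gfap, -0.04699 to 0.12 for Vim and -0.06093 to 0.00673 for S100b, and that of Lcn2 in liver from -0.2838 to 1.112. In AL mice the ranges were -0.04688 to 0.332 for Cd44 and -0.3139 to 0.1793 for S100b in choroid plexus, -0.1384 to 1.023 for Gfap and -0.04718 to 0.728 for Vim in hypothalamus against thalamus, and -0.1689 to 0.6125 for Lcn2 in SVZ against caudate putamen. In PBS mice they were -0.0559 to 0.126 for S100b in choroid plexus, -4.221 to 0.6607 for Lcn2 in corpus callosum, -0.3993 to 0.8992 for Lcn2 in hippocampus, -0.0866 to 1.259 for Vim in hypothalamus against thalamus, and -0.314 to 0.6398 for Gfap and -2.581 to 0.978 for Lcn2 in SVZ against caudate putamen. Of the region contrasts under all settings, 890 kept direction and call, 27 lost the call, 12 gained it and 15 changed sign. The low counts of Lcn2, 3 or fewer in 104 libraries, limit every Lcn2 value.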
